A study of Homo sapiens with 12 samples.

Results

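The transcripts of the lysosomal proton pump and of other lysosomal proteins were followed in HepG2 cells with altered levels of TST. The set held 43 of the 57500 genes counted: 18 genes of the vacuolar-type proton pump (V-ATPase) and 25 others, of which 14 encode hydrolases or their activator precursor, 9 encode membrane or cholesterol transfer proteins and 2 encode transcription factors. The genes were chosen by name as known lysosomal genes and matched through their Ensembl identifiers. The rule used no measured value, but the list was drawn up with earlier results of these data known. All 43 passed the filter on low counts in every comparison, CTSZ with as few as 4 counts in a library.

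HepG2 is a human hepatocarcinoma line. TST, thiosulfate sulfurtransferase, is the mitochondrial enzyme that turns cyanide into thiocyanate. The WT group held 4 libraries of unmodified genotype, for which no vector is described. The shTST group held 4 libraries of cells in which TST was silenced by an shRNA plasmid delivered by lentivirus, and the overTST group held 4 libraries of cells given a codon-optimized TST coding sequence in a lentiviral vector with a CMV promoter. Transduced cells were selected with blasticidin, so carriage of a vector and TST level cannot be told apart in the comparisons with WT. All 12 cultures were kept for 24 h before RNA extraction in the study's normal medium, which holds 400 µM glycine. The replicates are described as independent. The study asked how a cell's capacity to dispose of cyanide affects its metabolism, and the lysosome is the compartment in which it looked for cyanide formed from glycine.

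The V-ATPase uses ATP to pump protons into the lysosome. Its cytosolic V1 sector splits ATP and turns a central rotor, and its membrane V0 sector carries the protons through a ring of small proteolipid subunits. The acid interior that results is needed by the hydrolases, which degrade proteins, sugars and lipids, and membrane proteins such as NPC1 then export the products, in the case of NPC1 cholesterol. The transcription factors TFEB and TFE3 are known to drive many of these genes through a short palindrome in their promoters, the CLEAR element.

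The core of that element is CACGTG, and it is shown here because it is a sequence feature that many of the genes share. Promoter sequence was taken from RefSeq (GRCh38.p14) for 33 of the 43 genes, and the 250 bases upstream of each start were searched. The palindrome reads alike on both strands. The core was present in 11 of 33 promoters (33.3%), against 6.34% of all 35116 promoters in the same table. The latter share was counted over every entry, not only over genes expressed here, while for each member only its first entry was used. It stood upstream of 4 of 13 V-ATPase genes (30.8%) and 7 of 20 other lysosomal genes (35%). A stricter form, GTCACGTG on either strand, which contains the core, was present in 27.3% of the members' promoters and in 2.16% of all promoters. The 10 genes without an entry were ATP6V1A, ATP6V1B2, ATP6V1C1, ATP6V1H, ATP6V0E1, CTSB, HEXA, ASAH1, PSAP and LAMP2.

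Sites of 30 bases are given for genes whose expression is described later, each read from 5′ to 3′ on the gene's strand with the core in capitals.
ATP6V0D1 (chr16:67481199-67481228, minus strand): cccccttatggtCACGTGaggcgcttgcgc
ATP6V1G1 (chr9:114587699-114587728, plus strand): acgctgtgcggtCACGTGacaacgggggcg
ATP6V0B (chr1:43974891-43974920, plus strand): ccggcgtggggtCACGTGgtaccggcgcat
ATP6V0E2 (chr7:149872884-149872913, plus strand): tcccttctgcatCACGTGgggactgcgcct
CLCN7 (chr16:1475058-1475087, minus strand): gccgtcgctcatCACGTGgccccgtcgcgc
CLCN7 (chr16:1475038-1475067, minus strand): cccgtcgcgcgtCACGTGgccgccggcgcg
CTSD (chr11:1763957-1763986, minus strand): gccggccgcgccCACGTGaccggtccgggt
CD63 (chr12:55729172-55729201, minus strand): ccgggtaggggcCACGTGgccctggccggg
LAMP1 (chr13:113297035-113297064, plus strand): accaggccgggtCACGTGggtccagggtca
LAMP1 (chr13:113297199-113297228, plus strand): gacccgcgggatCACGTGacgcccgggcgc
The cores lay close to the start in most of these genes: the capitals began 59 bases upstream in ATP6V0D1, 58 in ATP6V1G1, 57 and 39 in ATP6V0B (the first is shown), 72 in ATP6V0E2, 47 and 27 in CLCN7 and 47 in CTSD. CD63 was an exception at 180 bases. LAMP1 had 5 cores, the first and last of which, at 192 and 28 bases, are shown. GAA, CTSA and MCOLN1 also carried the core, each at 2 places. The 22 promoters without it included those of NPC1, ATP6V0A1, TFEB and TFE3. A match is a description of the letters and not evidence of binding.

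The libraries held 28866175 to 45120508 counts in WT, 27527854 to 33865386 in shTST and 22911380 to 27414142 in overTST. Mitochondrial genes took 6.91% to 9.42% of the counts in WT replicates 1 to 3 and 11.98% in WT replicate 4, 6.84% to 8.65% in shTST and 10.8% to 11.7% in overTST, so that the lines did not overlap. TST itself was 47.2, 47.5, 52.8 and 48.5 CPM (counts scaled to library size, with TMM) in the WT libraries, 32.99, 33.6, 36.5 and 33.5 in shTST and 51.8, 56.04, 61.6 and 62.1 in overTST. Its log2 fold change was -0.52 ± 0.05 (SE) in shTST (edgeR adjusted p = 3.20e-06) and 0.24 ± 0.06 in overTST (edgeR adjusted p = 0.00384). The overTST value fell to 0.10 (edgeR adjusted p = 0.201) when a trend with gene length was removed, and how many reads of the codon-optimized sequence were counted as TST was not tested. Hepatocyte markers were high, with WT means of 4806 TPM (transcript level scaled to exonic length and library) for ALB and 1747 for AFP. Summed over 8 such markers, the level ranged from 12675 to 16773 TPM in WT, 15827 to 18660.1 in shTST and 11619 to 14932 in overTST. In shTST 3 of the 8 were called higher and 2 lower than in WT, where 6.69% and 9.4% of all genes tested were. In overTST 2 were higher and 2 lower, where 15.7% and 18.2% of all genes were. With the trend with gene length removed, 0 were higher and 2 lower in overTST, where 14.2% and 14.3% of all genes were. Between the lines 5 were higher and 1 lower in shTST, where 16.9% and 16.1% of all genes were. Of 5 macrophage markers, PTPRC, CSF1R and AIF1 lay at or below 0.365 TPM in every group mean, while CD14 and LYZ reached 8.18 and 2623 in WT. Their sum, nearly all LYZ, ranged from 2328 to 2788 TPM in WT, 2220.2 to 2524 in shTST and 1983 to 2411 in overTST. Summed fibroblast markers ranged from 8.16 to 9.69 TPM in WT, 6.55 to 8.07 in shTST and 5.3 to 5.91 in overTST, nearly all from PDGFRB, with COL1A2 and COL3A1 close to 0. Summed endothelial markers ranged from 0.971 to 1.25, 0.71 to 0.886 and 1.04 to 1.22 TPM. The part of these genes and of the mitochondrial share in the results was not tested.

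Levels were first compared between genes within WT, per exonic length, as TPM. The pump's subunits spanned a wide range. ATP6V1F, a subunit of the central rotor, was the highest at 301 ± 29.9 TPM (SD, n = 4), followed by ATP6V0C, the proteolipid of the V0 ring, at 271 ± 19.8. ATP6V0C shares 57.5% of its exonic length with another gene on the same strand, and the effect on its level was not tested. The small membrane subunits ATP6V0E2 and ATP6V0E1 stood at 227 ± 21.9 and 181 ± 17.3, and the stalk subunit ATP6V1G1 at 178 ± 16.9. The catalytic and nucleotide-binding subunits ATP6V1A and ATP6V1B2 were lower, at 28.8 ± 4.34 and 34.97 ± 2.79 TPM. Their ranges overlapped, although ATP6V1B2 was the higher in each of the 4 WT libraries.

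Where a subunit has paralogs, one of each pair was usually the more abundant. ATP6V0A1 made up 79.0% ± 1.57 (SD, n = 4) of the summed TPM of the a subunits ATP6V0A1 and ATP6V0A2 in WT. TCIRG1, another a isoform, is outside the 43 genes and was not in this sum. Its WT mean was 41.93 CPM over 4384 exonic bases, against 46.38 CPM over 11056 for ATP6V0A1. ATP6V1C1 made up 94.1% ± 1.07 of the C subunits. The C2 value is uncertain, since 30.3% of the exonic length of ATP6V1C2 lies opposite PDIA6, which had 156642 counts in all libraries against 728 for ATP6V1C2, and the use of strand in counting is not given in the sources used here. ATP6V0E1 and ATP6V0E2 were closer, with ATP6V0E1 at 44.3% ± 0.465. Among the hydrolases, PSAP (243 ± 44.8 TPM), the precursor of the saposins that activate sphingolipid hydrolases, and the cathepsins CTSB (208 ± 18.5), CTSD (203 ± 20.6) and CTSA (192 ± 19.5) were highest. Their ranges overlapped, although PSAP and CTSB each exceeded CTSA in all 4 WT libraries. CTSD shares 41.7% of its exonic length with another gene on the same strand, and the effect on its level was not tested. CTSZ, another cathepsin, was the lowest of all 43 genes at 0.806 ± 0.0492 TPM. The membrane proteins ran from CD63 at 232 ± 18.5 and LAMP1 at 166 ± 20.2 to NPC1 at 21.8 ± 2.46 and the calcium channel MCOLN1 at 10.3 ± 1.66. TFE3 was higher than TFEB, at 35.95 ± 4.21 against 11.5 ± 1.32 TPM.

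**Figure D1:**
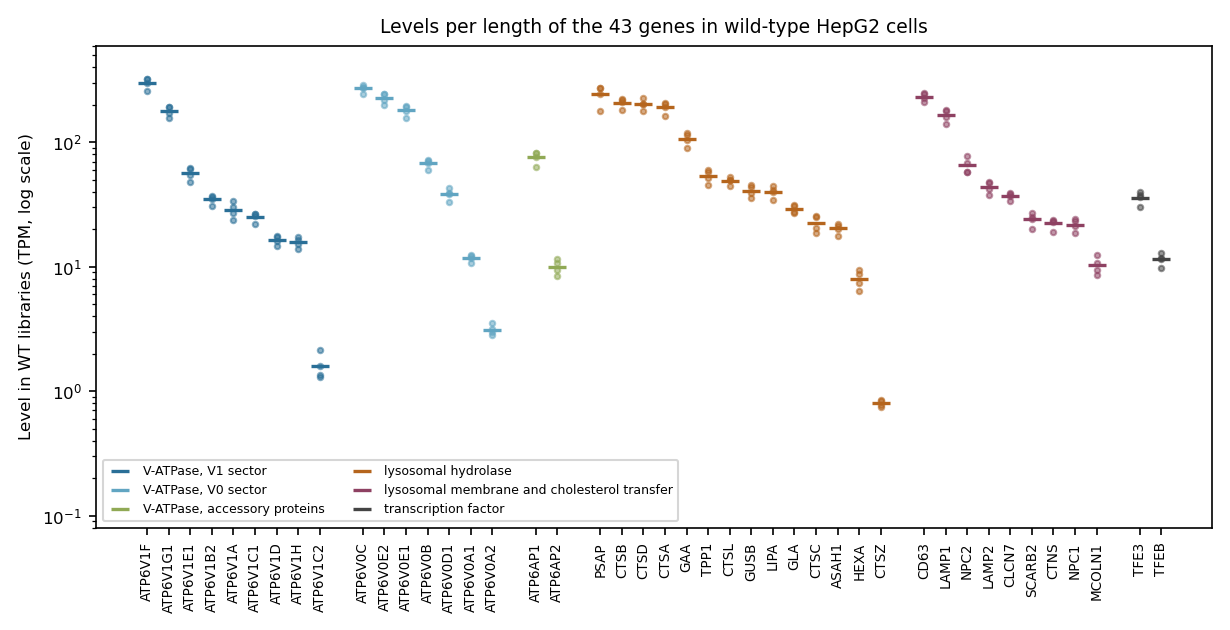
Levels of the 43 genes in WT HepG2 cells in TPM on a log axis, grouped by role and ordered by mean within each group; points are the 4 WT libraries and dashes their mean. Levels ran from 301 TPM for ATP6V1F to 0.806 TPM for CTSZ, and subunits of the same pump differed widely.

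With TST silenced, 1 of 18 V-ATPase genes was higher than in WT and 5 were lower at an edgeR adjusted p of at most 0.05, against 6.69% of all 14584 genes tested called higher and 9.4% called lower. Among the other 25 genes, 3 were higher and 5 lower. With a trend with gene length removed the same 14 genes were called, and 8.05% of all genes were higher and 9.88% lower. The changes were small: the largest, in NPC1, was 1.41-fold, and the median log2 fold change was -0.03 over the V-ATPase genes, -0.03 over the other genes and 0.004 over all genes tested. The members were expressed at higher levels than most genes, with a median log2 CPM of 6.13 against 4.14 and 39 of 43 above the median of all genes tested, and the part of expression level in their share of calls was not tested.

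In the pump 4 of 7 V0 genes and 1 of 9 V1 genes were called lower, against 9.4% of all genes tested. Of the V0 genes only ATP6V0A1 and ATP6V0D1 kept the call in every fit that left out a library. ATP6V0A1 (ENSG00000033627, chr17:42458844-42522611) is an a subunit, which forms the proton path beside the ring, and was higher in TPM than ATP6V0A2. It was 42.7, 49.5, 45.6 and 47.7 CPM in the WT libraries and 37, 38.3, 37.4 and 36.1 in the shTST libraries. Every shTST library was below every WT library, at a log2 fold change of -0.32 ± 0.05 (edgeR adjusted p = 4.34e-04). ATP6V0D1 (ENSG00000159720, chr16:67438014-67481237), the subunit that joins the ring to the rotor, was 106, 113, 118 and 109 CPM in WT and 93.2, 96.4, 90 and 95.5 in shTST. These groups did not overlap either, with a log2 fold change of -0.25 ± 0.05 (edgeR adjusted p = 7.17e-04).

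The remaining V0 calls were weaker. ATP6V0C fell by 9.09% (edgeR adjusted p = 0.0435) and ATP6V0E2 fell by 8.28% (edgeR adjusted p = 0.0373), both without overlap between groups. ATP6V1H, a regulatory subunit of V1, fell by 11.96% (edgeR adjusted p = 0.0326). None of these 3 held when single libraries were left out: ATP6V0C lost its call in 6 of 8 such fits (edgeR adjusted p up to 0.215, without shTST replicate 1), ATP6V0E2 in 7 (up to 0.138, without shTST replicate 1) and ATP6V1H in 7 (up to 0.0929, without shTST replicate 4). The paralogs ATP6V0A2 and ATP6V0E1 had log2 fold changes of 0.08 ± 0.07 and 0.03 ± 0.04 and were not called. The other 8 V1 subunits ranged from -0.10 for ATP6V1C1 to 0.16 for ATP6V1C2, and none passed.

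ATP6AP2, an accessory protein of the pump also known as the prorenin receptor, went the other way. It was 36.4, 32.3, 34.3 and 32.6 CPM in WT and 42.9, 42.2, 40.3 and 40.6 in shTST, all above WT, with a log2 fold change of 0.29 ± 0.05 (edgeR adjusted p = 9.84e-04). The second accessory protein, ATP6AP1, had a log2 fold change of 0.0012 with an SE of 0.05.

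**Figure D2:**
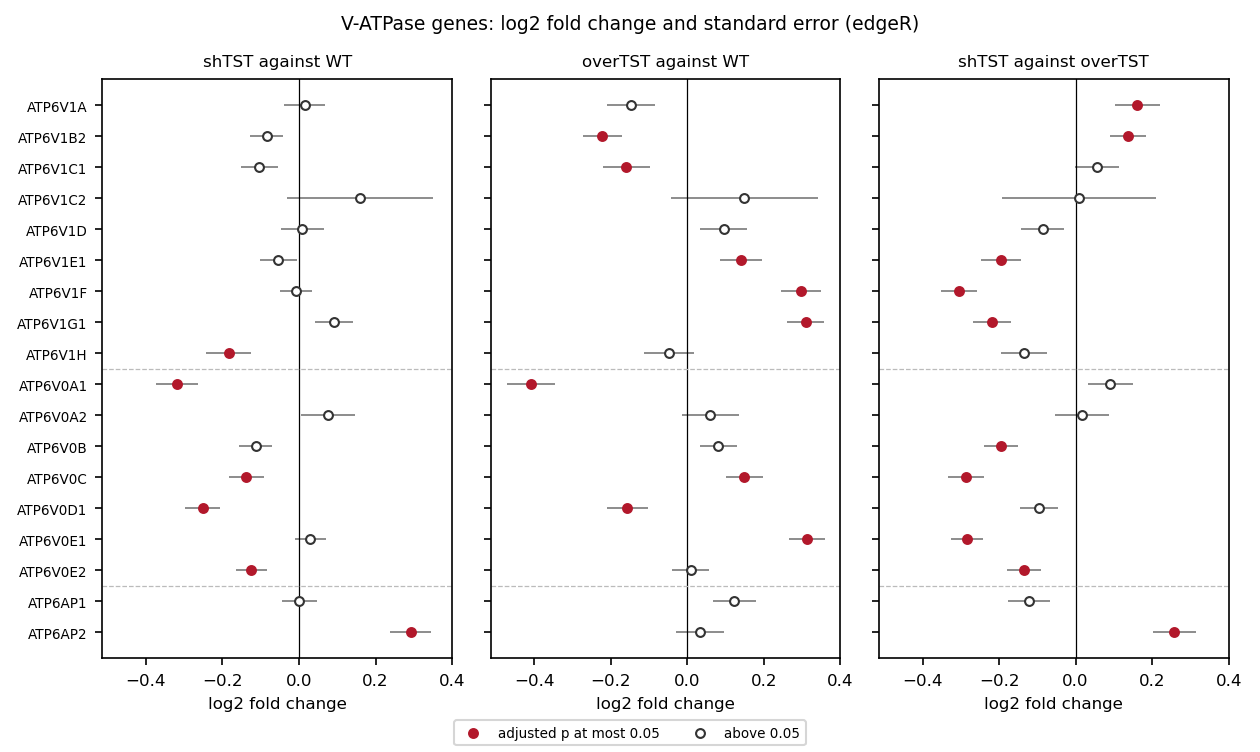
Log2 fold change (point) and standard error (bar) of the 18 V-ATPase genes in the 3 comparisons, with V1 genes above, V0 genes in the middle and accessory proteins below; filled points passed an edgeR adjusted p of 0.05. ATP6V0A1 lay below 0 in both comparisons with WT, ATP6AP2 was higher in shTST, and ATP6V0E1, ATP6V1F and ATP6V1G1 were higher in overTST.

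NPC1 (ENSG00000141458, chr18:23506184-23586898), the membrane protein that moves cholesterol out of lysosomes, had the largest change of all 43 genes with TST silenced. It was 77.04, 87.5, 72.9 and 75.8 CPM in WT and 56.1, 55.1, 53.5 and 57.05 in shTST, without overlap, and fell by 29.3% (log2 fold change -0.50 ± 0.05, edgeR adjusted p = 3.58e-06). Its soluble partner NPC2, which hands cholesterol to NPC1, had a log2 fold change of 0.13 ± 0.06 and did not pass (edgeR adjusted p = 0.121).

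CLCN7 (ENSG00000103249, chr16:1444934-1475580), the chloride-proton exchanger that acts beside the pump, was 99.7, 115, 105 and 110.4 CPM in WT and 80.95, 92.6, 84.5 and 89.7 in shTST. All shTST libraries were below WT, with a log2 fold change of -0.31 ± 0.05 (edgeR adjusted p = 3.83e-04). CTNS, the exporter of cystine, was 26.8, 28.5, 26.4 and 26.2 CPM in WT and 22.8, 21.1, 21.4 and 23.1 in shTST, again without overlap (-0.29 ± 0.06, edgeR adjusted p = 0.00219). The other membrane genes did not pass: LAMP1, LAMP2, CD63 and SCARB2 lay between -0.01 and 0.07, and MCOLN1 had a log2 fold change of -0.23 ± 0.09 (edgeR adjusted p = 0.0952).

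Among the hydrolases the called genes were mostly higher. HEXA, the alpha subunit of beta-hexosaminidase, was 39.2, 33.3, 37.2 and 32.9 CPM in WT and 43.3, 41.8, 46.4 and 41.4 in shTST, above every WT library (0.28 ± 0.06, edgeR adjusted p = 0.00364). PSAP was 291, 283, 302 and 235 CPM in WT and 338, 298, 351 and 338 in shTST, where 1 shTST library lay within the WT range (0.26 ± 0.06, edgeR adjusted p = 0.00724). The dipeptidyl peptidase CTSC was also higher (0.20 ± 0.05, edgeR adjusted p = 0.0123), but not without shTST replicate 1 (edgeR adjusted p = 0.0524). CTSD, the main aspartic protease of lysosomes, was lower (-0.19 ± 0.05, edgeR adjusted p = 0.0158). It lost this call in 3 of 8 fits that left out a library, with an edgeR adjusted p of up to 0.0866 without shTST replicate 1. The remaining 10 hydrolase genes were not called, and CTSZ, the gene with the fewest counts, had an SE of 0.40.

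Of the transcription factors, TFE3 was lower in shTST (51.95 to 60.9 CPM in WT, 45.8 to 51.1 in shTST, -0.18 ± 0.06, edgeR adjusted p = 0.0293). The call was lost in 4 of 8 fits that left out a library (edgeR adjusted p up to 0.114, without WT replicate 2). TFEB was 22.1 to 24.6 CPM in WT and 21.4 to 22.6 in shTST and did not pass (-0.07 ± 0.06, edgeR adjusted p = 0.493). In all, 8 of the 14 calls with shTST were kept whichever library was left out, and these were the 8 genes given library by library: NPC1, CLCN7, ATP6V0A1, ATP6V0D1, ATP6AP2, CTNS, HEXA and PSAP.

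With TST overexpressed, 5 of 18 V-ATPase genes were higher than in WT and 4 lower, and 6 of the other 25 genes were higher and 3 lower. Of all 14421 genes tested, 15.7% were called higher and 18.2% lower. This comparison shares its 4 WT libraries with that of shTST. Its fold changes also followed gene length: Spearman's rho between log2 fold change and exonic length was -0.404 over the genes tested, against -0.09 for shTST, and genes are not independent replicates. Values with this trend removed are therefore given beside those of overTST. With the trend removed, 5 V-ATPase genes were higher and 1 lower, and 6 and 3 of the others, against 14.2% and 14.3% of all genes tested. Of the 18 calls made before the correction 11 were kept, and ASAH1 was the gene gained outside the pump.

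NPC1 was again the gene with the largest change. It was 54.6, 50.03, 52.7 and 55.05 CPM in the overTST libraries, all below the WT range of 72.9 to 87.5, and fell by 32.2% (log2 fold change -0.56 ± 0.06, edgeR adjusted p = 2.94e-07). The length-corrected value was -0.41 (edgeR adjusted p = 3.71e-06). NPC2 was 61.8, 56.9, 71.7 and 64.01 CPM in WT and 73.5, 73.8, 84.5 and 83.1 in overTST, above every WT library, at 0.31 ± 0.07 (edgeR adjusted p = 7.12e-04) and 0.22 with length corrected (edgeR adjusted p = 0.0057). The 2 partners in cholesterol export thus had called changes of opposite sign in overTST.

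ATP6V0A1 was 36.7, 36.7, 32.5 and 33.8 CPM in overTST, below every WT library, at -0.41 ± 0.06 (edgeR adjusted p = 2.47e-05) and -0.25 with length corrected (edgeR adjusted p = 0.00274). It was the only V-ATPase gene called lower under both treatments of length. ATP6V0D1 (-0.16), ATP6V1B2 (-0.22) and ATP6V1C1 (-0.16) were called lower only before the correction, after which their values were -0.04, -0.12 and -0.10 (edgeR adjusted p = 0.593, 0.0749 and 0.217). The share of ATP6V0A1 in the summed TPM of ATP6V0A1 and ATP6V0A2 was 71.8% to 74.7% in overTST and 71.9% to 75.2% in shTST, and 77.0% to 80.8% in WT.

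Of the 5 higher V-ATPase genes, 4 had at most 2 kb of exonic sequence, while ATP6V1E1 had 3212 bases. ATP6V0E1 (1623 exonic bases) was 104, 104, 105 and 103 CPM in WT and 126, 133, 131 and 126 in overTST, without overlap (0.31 ± 0.05, edgeR adjusted p = 1.85e-05). ATP6V1G1 (1305 bases), part of the stalk that holds the catalytic head, was 82.3, 80.1, 84.2 and 82.7 CPM in WT and 97.8, 104, 105 and 102 in overTST (0.31 ± 0.05, edgeR adjusted p = 3.06e-05). Both kept their calls after the length correction, at 0.15 (edgeR adjusted p = 0.0152) and 0.14 (edgeR adjusted p = 0.0241).

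ATP6V1F (789 bases) was 83.9, 84.2, 86.2 and 82.96 CPM in WT and 94.7, 109.5, 107 and 104 in overTST. Its groups did not overlap and its log2 fold change was 0.30 ± 0.05 (edgeR adjusted p = 1.02e-04), but the call was lost with length corrected (0.11, edgeR adjusted p = 0.0715). ATP6V0C (1498 bases) went from 0.15 to -0.02, and ATP6V1E1 from 0.14 to 0.08, both without a call after correction. The 4 members with at most 2 kb of exonic sequence were all called higher before correction, among 609 of 2336 genes of that length tested. In the other direction, ATP6V0A2, ATP6AP1 and ATP6AP2 were called higher only after it (0.25, 0.15 and 0.17, edgeR adjusted p = 0.0125, 0.0386 and 0.0372).

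**Figure D3:**
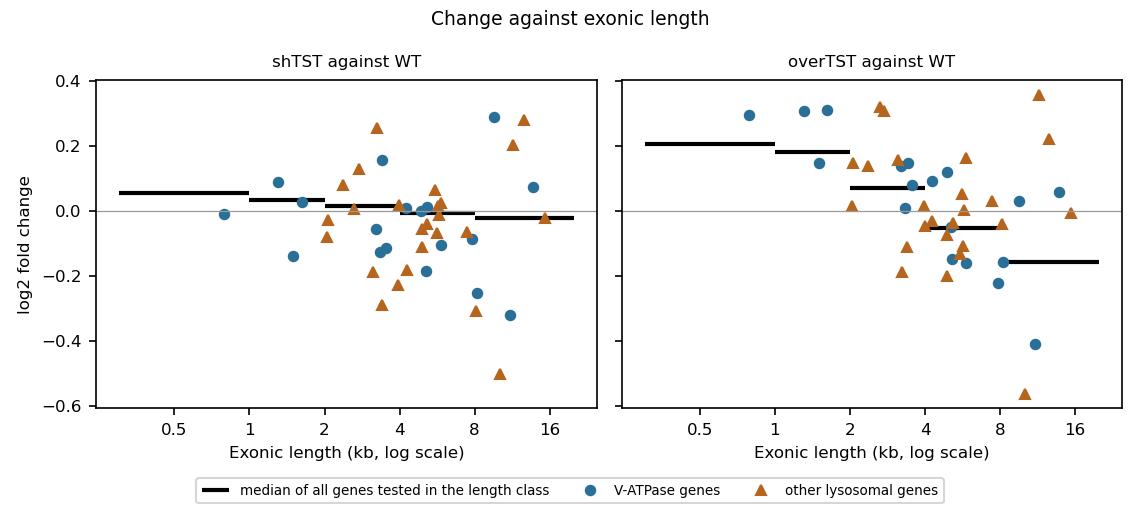
Log2 fold change against exonic length in kb (log axis) for the 18 V-ATPase genes (circles) and 25 other lysosomal genes (triangles), with black lines at the median of all genes tested in each length class. In overTST the medians ran from 0.21 for genes up to 1 kb to -0.16 for genes over 8 kb, and in shTST from 0.06 to -0.02.

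Outside the pump, CD63, a tetraspanin of late endosomes and lysosomes, was 214, 214, 220.4 and 222 CPM in WT and 262, 282, 277 and 266 in overTST. Every overTST library was above WT (0.32 ± 0.05, edgeR adjusted p = 1.23e-05, and 0.23 with length corrected, edgeR adjusted p = 3.38e-04). CTSC was 94.4, 83.5, 99.3 and 85.9 CPM in WT and 112, 109, 123 and 122 in overTST, without overlap (0.36 ± 0.06, edgeR adjusted p = 5.11e-05). Its annotated exons are long together (11421 bases), and its value rose to 0.52 with length corrected (edgeR adjusted p = 1.89e-06). That length covers all annotated exons and can exceed that of the transcripts expressed, and its part in this rise was not tested.

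Further hydrolase calls were smaller. CTSA and HEXA were higher (0.16 and 0.22) and stayed called after the length correction (0.23 and 0.40), whereas each lost its call in 4 of 8 fits that left out a library, with an edgeR adjusted p of up to 0.0645 without overTST replicate 2 and up to 0.0821 without overTST replicate 4. LIPA, the acid lipase that frees cholesterol from its esters, was lower at -0.20 ± 0.05 (edgeR adjusted p = 0.00607), or -0.17 with length corrected (edgeR adjusted p = 0.0173), and kept its call in every fit that left out a library. PSAP was lower at -0.19 ± 0.06 (edgeR adjusted p = 0.0238), with overlap, or -0.24 with length corrected (edgeR adjusted p = 0.0041). It lost its call in 4 fits that left out a library (edgeR adjusted p up to 0.0865, without WT replicate 3). CTSD, higher at 0.16 (edgeR adjusted p = 0.0492), was not called with length corrected (0.10). CLCN7, CTNS, LAMP1, LAMP2, SCARB2, MCOLN1, TFEB and TFE3 were not called, and the nearest to the threshold was LAMP2 (-0.13 ± 0.05, edgeR adjusted p = 0.0547, and -0.08 with length corrected).

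**Figure D4:**
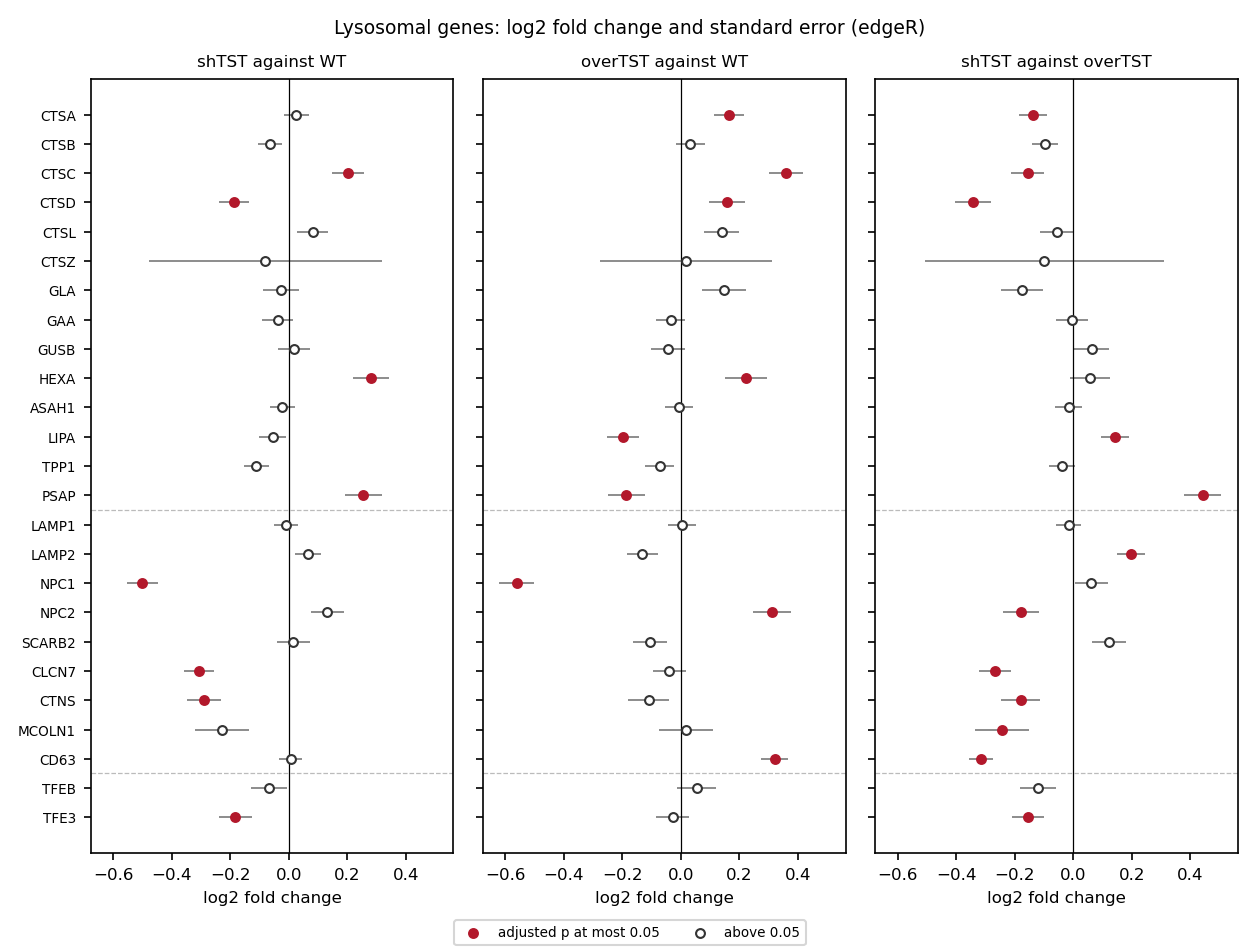
Log2 fold change (point) and standard error (bar) of the 25 other lysosomal genes in the 3 comparisons, with hydrolases above, membrane and cholesterol transfer proteins in the middle and transcription factors below; filled points passed an edgeR adjusted p of 0.05. NPC1 lay near -0.5 in both comparisons with WT and near 0 between the lines, while PSAP and CTSD differed most between the lines in opposite directions.

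The lines were also compared directly, in a fit of all 12 libraries. Fold changes followed gene length here too, with a Spearman's rho of 0.357 over the genes tested. Values between the lines are without length correction unless a corrected value is given beside them. Of the V-ATPase genes 3 of 18 were higher and 7 lower in shTST than in overTST, and of the other genes 3 of 25 were higher and 9 lower, against 16.9% of 14883 genes called higher and 16.1% called lower. The median log2 fold change of the 43 genes was -0.10, against 0.0008 over all genes tested. With length corrected, 0 V-ATPase genes were higher and 8 lower, and 2 of the others were higher and 9 lower, against 13% and 14.9% of all genes tested. These counts hide changes of genes, since 13 of the 22 calls were kept. In the pump ATP6V1A, ATP6V1B2, ATP6V1G1, ATP6V0E2 and ATP6AP2 lost their calls, and ATP6V1H, ATP6V0D1 and ATP6AP1 were then called lower. Outside it LIPA, NPC2, CTNS and MCOLN1 lost theirs, and CTSB, ASAH1 and TFEB were then called lower. The membrane genes called lower thus went from 5 to 2, the hydrolases from 3 to 5 and the transcription factors from 1 to 2.

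In the V0 sector 4 of 7 genes were lower in shTST, where 16.1% of all genes tested were. ATP6V0C was 119.5, 135, 137 and 134 CPM in shTST and 152, 159.6, 161 and 168 in overTST, with WT between them at 141 to 148. The lines did not overlap, and the difference was -0.29 ± 0.05 (edgeR adjusted p = 6.48e-05), or -0.14 with length corrected (edgeR adjusted p = 0.0211). Its exons share 57.5% of their length with an unnamed gene on the same strand, which had 24 counts in all. How reads in the shared stretch were assigned was not tested. ATP6V0E1 differed by -0.28 ± 0.04 (edgeR adjusted p = 1.91e-05), ATP6V0B by -0.19 ± 0.04 (edgeR adjusted p = 0.00145) and ATP6V0E2 by -0.13 ± 0.04 (edgeR adjusted p = 0.0195). With length corrected the call of ATP6V0E2 was lost, and those of ATP6V0E1 and ATP6V0B were kept. ATP6V0A1, low in both lines, did not differ detectably between them (0.09 ± 0.06, edgeR adjusted p = 0.254).

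In the V1 sector ATP6V1F was 82.5 to 85.4 CPM in shTST and 94.7 to 109.5 in overTST. The difference was -0.30 ± 0.05 (edgeR adjusted p = 3.46e-05) and -0.16 with length corrected (edgeR adjusted p = 0.0068). Part of its exons, 23.7%, lies opposite KCP, which had 934 counts against 32180. ATP6AP2 was 40.3 to 42.9 CPM in shTST and 32.5 to 36.2 in overTST (0.26 ± 0.06, edgeR adjusted p = 9.69e-04), a call that was lost with length corrected (edgeR adjusted p = 0.0608).

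PSAP and CTSD differed between the lines in opposite directions. PSAP was 338, 298, 351 and 338 CPM in shTST and 228, 236, 248 and 264 in overTST, so that the lines did not overlap (0.44 ± 0.06, edgeR adjusted p = 1.41e-05). CTSD was 184, 190.0, 213 and 204 CPM in shTST and 216, 276, 259.9 and 254 in overTST, where the lowest overTST library lay just above the highest shTST library (-0.34 ± 0.06, edgeR adjusted p = 1.45e-04). Both kept their calls in every fit that left out a library and with length corrected, at 0.49 and -0.29. A stretch of 41.7% of the exonic length of CTSD is shared with an unnamed gene on the same strand that had 100 counts against 80369. The assignment of reads in that stretch was not tested either.

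Of the membrane genes, CD63 was 214 to 224 CPM in shTST and 262 to 282 in overTST (-0.31 ± 0.04, edgeR adjusted p = 5.51e-06). CLCN7 was 80.95 to 92.6 CPM in shTST and 99.2 to 115 in overTST, where the groups did not overlap (-0.27 ± 0.06, edgeR adjusted p = 6.50e-04). LAMP2, a glycoprotein of the lysosomal membrane, was higher in shTST (0.20 ± 0.05, edgeR adjusted p = 0.0022), while its relative LAMP1 lay at -0.02 ± 0.04 and was not called. CD63, CLCN7 and LAMP2 kept their calls with length corrected. NPC1 differed by 0.06 ± 0.06 between the lines (edgeR adjusted p = 0.429), a value that changed sign to -0.07 with length corrected. TFE3 was lower in shTST, at -0.15 ± 0.06 (edgeR adjusted p = 0.034), a call lost in 6 of 8 fits that left out a library (edgeR adjusted p up to 0.118, without shTST replicate 4), and TFEB was not called (-0.12 ± 0.06, edgeR adjusted p = 0.14).

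In this comparison 12 of the 22 calls were kept whichever library of the 2 lines was left out, and 10 were not. Those 10 were ATP6V1A, ATP6V1B2, ATP6V0E2, CTSA, CTSC, LIPA, NPC2, CTNS, MCOLN1 and TFE3, with an edgeR adjusted p of at most 0.193, reached by CTNS without overTST replicate 4. In overTST against WT 10 of the 18 calls were kept, and the 8 lost in some fit were ATP6V1C1, ATP6V1E1, ATP6V0C, ATP6V0D1, CTSA, CTSD, HEXA and PSAP, with an edgeR adjusted p of at most 0.236, reached by ATP6V1E1 without overTST replicate 3.

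The calls were then set beside the promoter core. With TST silenced, 0 of the 11 genes with CACGTG were higher and 4 lower (ATP6V0D1, ATP6V0E2, CLCN7 and CTSD), and of the 22 genes with a promoter but no core 2 were higher and 5 lower, NPC1 and ATP6V0A1 among them. Of all genes tested in that comparison, 6.69% were higher and 9.4% lower. Of the lower calls, 2 of the 4 with the core and 3 of the 5 without it were kept in every fit that left out a library. In overTST against WT the counts were 4 higher and 1 lower with the core and 5 and 3 without it. There 15.7% of all genes tested were higher and 18.2% lower. With length corrected 3 were higher and 0 lower with the core and 5 and 3 without it, against 14.2% and 14.3% of all genes tested. Of the higher calls before correction, 2 of the 4 with the core and 3 of the 5 without it were kept in every fit that left out a library. Between the lines 8 of the 11 genes with the core were lower in shTST and 0 higher, and of the 22 without it 7 were lower and 2 higher, where 16.1% of all genes tested were lower and 16.9% higher. Of these 8 calls, ATP6V0E2, CTSA and MCOLN1 were lost in some fit that left out a library, so that 5 were kept in every such fit, and of the 7 without the core 3 were kept. With length corrected 6 of the 11 and 7 of the 22 were lower, against 14.9% of all genes tested. The median log2 fold change between the lines was -0.19 with the core and -0.09 without. These are descriptions of genes chosen as lysosomal, and no difference between the classes was tested.

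The wider set of lysosomal genes, 110 named genes of which 109 were analysed, gave a background from the same compartment. With TST silenced 7 of the 97 tested were higher and 16 lower, where 6.69% and 9.4% of all genes were. In overTST 16 of 97 were higher and 23 lower, where 15.7% and 18.2% of all genes were, and with length corrected 17 and 22. Between the lines 20 of 98 were higher and 15 lower in shTST, where 16.9% and 16.1% of all genes were. Of 12 further genes for V-ATPase isoforms and assembly tested, 4 were higher and 1 lower in shTST. In overTST 3 were higher and 4 lower, or 2 and 2 with length corrected, where 14.2% and 14.3% of all genes were. Between the lines 4 of 13 were higher and 3 lower in shTST. VMA21, an assembly chaperone of the V0 sector in the endoplasmic reticulum, was 19.6 to 25.03 CPM in WT, 29.6 to 32.1 in shTST and 29.9 to 30.9 in overTST, higher in both lines (0.48 ± 0.07 and 0.46 ± 0.07, edgeR adjusted p = 9.50e-05 and 3.69e-05), the latter 0.50 with length corrected. TMEM199, also an assembly factor, was higher in overTST (0.42 ± 0.07, edgeR adjusted p = 4.36e-05, and 0.44 with length corrected). TCIRG1, the a3 isoform of the pump, was lower in shTST than in WT (-0.24 ± 0.05, edgeR adjusted p = 0.0049) and than in overTST (-0.35 ± 0.06, edgeR adjusted p = 1.05e-04). WDR7, a partner of the V-ATPase, was higher in shTST than in overTST (0.46 ± 0.10, edgeR adjusted p = 7.87e-04, and 0.29 with length corrected, edgeR adjusted p = 0.0219).

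Of the genes that sort hydrolases to lysosomes, 7 of 16 were lower and 1 higher in overTST, or 6 and 3 with length corrected. In shTST 3 of 16 were lower and 0 higher. Of all genes tested, 18.2% were lower and 15.7% higher in overTST, or 14.3% and 14.2% with length corrected. In shTST 9.4% of all genes were lower and 6.69% higher. IGF2R, the large mannose 6-phosphate receptor, was 345 to 388 CPM in WT, 285 to 307 in shTST and 238 to 268 in overTST. Its log2 fold change was -0.28 ± 0.05 in shTST (edgeR adjusted p = 2.38e-04) and -0.51 ± 0.05 in overTST (edgeR adjusted p = 1.71e-07), or -0.32 with length corrected. SORL1, another sorting receptor, was lower in both lines, at -0.23 and -0.53 (edgeR adjusted p = 0.00487 and 1.16e-06), the latter -0.31 with length corrected. Between the lines 8 of the 16 were higher and 2 lower in shTST, where 16.9% and 16.1% of all genes were. With length corrected 6 were higher and 4 lower, where 13% and 14.9% of all genes were. SORT1 and GGA3 were higher in shTST than in overTST (0.31 and 0.28), and 0.20 and 0.21 with length corrected.

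Among genes of nutrient sensing on the lysosomal surface, 1 of 16 was higher and 3 lower in shTST, and 5 were higher and 3 lower in overTST, or 4 and 2 with length corrected. The shares of all genes tested were 6.69% higher and 9.4% lower in shTST. In overTST they were 15.7% and 18.2%, or 14.2% and 14.3% with length corrected. The kinase MTOR was lower in both lines (-0.23 ± 0.05 and -0.34 ± 0.05, edgeR adjusted p = 0.00365 and 3.72e-05), the latter -0.17 with length corrected, and RPTOR, the scaffold of its complex, was lower in shTST (-0.25 ± 0.05, edgeR adjusted p = 0.00219). FNIP2 was lower in overTST (-0.58 ± 0.08, edgeR adjusted p = 5.24e-06, and -0.42 with length corrected). LAMTOR1, the anchor of the Ragulator complex, and RHEB, an activator of mTORC1, were lower in shTST than in overTST (-0.30 and -0.22, edgeR adjusted p = 6.11e-05 and 6.91e-04).

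Of 23 further membrane proteins and transporters, 1 was higher and 4 lower in shTST, and 2 higher and 5 lower in overTST, or 3 and 5 with length corrected. Over all genes tested 6.69% were higher and 9.4% lower in shTST, and 15.7% and 18.2% in overTST. With length corrected the overTST shares were 14.2% and 14.3%. SLC36A1, an exporter of small amino acids such as glycine and proline, was 14.3 to 18.3 CPM in WT and 11.4 to 12.3 in overTST (-0.48 ± 0.09, edgeR adjusted p = 1.12e-04, and -0.40 with length corrected, edgeR adjusted p = 6.32e-04). LAPTM4B was lower in overTST (-0.16, edgeR adjusted p = 0.0124, and -0.22 with length corrected). MFSD12, a cysteine transporter of lysosomes and melanosomes, and SLC29A3, a nucleoside transporter, were lower in shTST than in WT (-0.28 and -0.25) and than in overTST (-0.31 and -0.20). The last of these calls was lost with length corrected (edgeR adjusted p = 0.153) and without shTST replicate 3 (edgeR adjusted p = 0.0558).

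Of 30 further hydrolases and activators tested, 1 was higher and 5 lower in shTST, and 5 higher and 4 lower in overTST. With length corrected 3 were higher and 5 lower in shTST, and 5 higher and 7 lower in overTST. Over all genes tested 6.69% were higher and 9.4% lower in shTST, or 8.05% and 9.88% with length corrected. In overTST these shares were 15.7% and 18.2%, or 14.2% and 14.3%. The cysteine protease CTSV had the largest change of this list in shTST, 4.98 to 5.47 CPM in WT and 7.001 to 8.61 in shTST (0.61 ± 0.10, edgeR adjusted p = 2.42e-04). The phospholipase PLA2G15 was lower in shTST (-0.29, edgeR adjusted p = 0.0023). In overTST the mannosidase MANBA was lower (-0.29, edgeR adjusted p = 0.00131, and -0.17 with length corrected, edgeR adjusted p = 0.0483). Between the lines the sulfamidase SGSH was lower and the galactosidase GLB1 higher in shTST (-0.26 and 0.26, edgeR adjusted p = 3.23e-04 and 3.99e-04).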

How the data were processed

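RNA of 12 HepG2 cultures was sequenced, and the authors deposited whole-number read counts per Ensembl gene for each library, not normalized, with gene coordinates and exonic length. The submitters' processing notes name Trimmomatic 0.36, STAR 2.5.2b and featureCounts of Subread 1.5.2 with GRCh38; the strand setting is not given in the sources used here. Groups and replicate numbers came from the sample titles. The members and gene lists were chosen with earlier results of these data known.

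Counts were filtered with filterByExpr, scaled by TMM and tested across all genes with edgeR 4.0.16 (quasi-likelihood, Benjamini-Hochberg adjusted p at most 0.05, R 4.3.3). Each line was fitted with WT on 8 libraries, and the lines against each other on all 12. The standard error of a log2 fold change was derived from its F statistic (log2 fold change over the root of F). Values per library are CPM with TMM scaling; TPM were computed from the counts and exonic lengths and used to order genes within a group. The length correction removed a lowess trend (span 0.3) of each library's log counts against exonic length as an offset. Exonic length covers all annotated exons of a gene and may differ from the length of the transcripts expressed. The effect of such differences on TPM and on corrected values was not tested. In each comparison up to 8 called members with the smallest p were given in full, with NPC1 and TST always, and up to 2 called genes of each wider list. A gene that this rule names is not reported here.

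Alternatives were DESeq2 1.42.0, limma-voom (limma 3.58.1), scaling by RLE or the upper quartile, testing without a filter, keeping genes above 1 CPM in 4 or more libraries, other sets of fitted libraries, the length correction, a replicate block and leaving out each library. The scripts were tested on simulated data. Counting error follows from 22911380 to 45120508 counts per library. Proteins and pH were not measured, 1 gene of the wider list was not analysed here, and fewer cells of a kind cannot be told apart from less RNA per cell in bulk libraries.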

Additional observations from a re-analysis of the deposited data

Results flagged for a closer look

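Among 48 groups of 4 libraries, from the 16 genes given library by library, 1 held a library that stood apart by Dixon's test of the gap between neighbours. ATP6V0C, the proteolipid of the V0 ring, was at 119.5 CPM in shTST replicate 1 and at 134.4 to 136.6 CPM in the other 3 shTST libraries. The gap was 0.872 of the range, past Dixon's critical value for 4 libraries, and chance flags about 1 group in 20. Without this library the call of ATP6V0C as lower than WT was lost (edgeR adjusted p = 0.215), and its call as lower than overTST was kept (edgeR adjusted p = 0.000531).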

How the results depend on the processing

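Of the calls of members, 8 of 14 in shTST against WT, 8 of 18 in overTST against WT and 10 of 22 between the lines were made under every alternative. Among 58 results for genes named mostly for their small p, a choice that favours stable calls, 53 kept their direction and call under every alternative, and of 1044 alternative values 1034 did so, 8 lost the call and 2 changed sign. The changed signs were those of NPC1 between the lines, -0.065 with gene length correction and -0.066 with replicate block and gene length correction. The 5 V-ATPase genes lower in shTST became 2 with upper-quartile normalization and 2 to 4 when a library was left out, with 2 without WT replicate 1 or 4 or shTST replicate 1, 2 or 4, and 3 without WT replicate 2 or shTST replicate 3. The 5 other genes lower in shTST became 3 to 5, with 3 without shTST replicate 1. The 7 wider genes higher in shTST became 4 to 9, with 4 without WT replicate 4 or shTST replicate 2 or 4. In overTST the 5 higher V-ATPase genes became 3 with no filter on low counts and 3 to 6 with a library left out, with 3 without replicate 4. The 4 lower ones became 2 with upper-quartile normalization, 1 with gene length correction, 1 with block and length correction together, and 2 to 4 with a library left out, with 2 without WT replicate 3 or overTST replicate 3 or 4. The 6 other genes higher in overTST became 3 to 7, with 3 without overTST replicate 3, and the 16 wider genes higher became 10 with no filter. Between the lines the 3 higher V-ATPase genes became 0 with gene length correction and 1 to 3 with a library left out, with 1 without shTST replicate 1 or overTST replicate 4. The 9 other genes lower in shTST became 4 with no filter and 3 to 8 with a library left out, of which 3 was without overTST replicate 3, 4 without shTST replicate 2, and 5 without shTST replicate 1 or 3 or overTST replicate 2 or 4. The cause of these shifts was not tested. CTSZ and ATP6V1C2 were the 2 genes with the fewest counts, as few as 4 and 44 in a library. The part of depth in the spread of their values was not tested.

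Replicate numbers did not pair the samples: correlations of deviations between libraries with the same number ran from -0.0527 to 0.0801 in shTST against WT, from -0.00217 to 0.0539 in overTST against WT and from -0.00498 to 0.0297 between the lines. With the replicate block, 6 V-ATPase genes were lower in shTST in place of 5 and 5 were lower in overTST in place of 4, and the block alone moved no count of called members by more than 1.5 times.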
